A study of Mus musculus with 10 samples.

Results

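Small RNA host transcripts are long RNAs, mostly noncoding, whose introns or spliced exons carry small nucleolar RNAs (snoRNAs), small Cajal body RNAs (scaRNAs) or microRNAs. They were followed here in total RNA from mouse brown adipose tissue, the fat depot that makes heat through the uncoupling protein Ucp1. The genes were taken by name: every symbol of the form Snhg followed by a number, every Mir symbol ending in hg (host gene), and Gas5, Dleu2, Epb41l4aos, Dancr and Rian. That rule gave 28 of the 32889 genes measured. All 28 matched a RefSeq gene, and 24 of them had enough counts to be tested.

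The tissue came from wild-type C57BL/6J mice in 3 groups. The control group had 4 libraries and received regular chow. Both other groups received a high-fat diet, and the labels divide them into obesity-prone mice with 3 libraries and obesity-resistant mice with 3 libraries. Age, sex, time on the diet, diet composition and the weights that separated prone from resistant mice are not given in the sources used here. Whether each library is a different mouse is not stated, so p-values measure only the spread between these libraries, which may be technical.

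Most snoRNAs of mammals are cut from introns after the host RNA is spliced. C/D box snoRNAs guide methylation of ribosomal and spliceosomal RNA, H/ACA box snoRNAs guide pseudouridylation, and scaRNAs guide the same changes in Cajal bodies. Many spliced snoRNA hosts code for no stable protein and are kept low by nonsense-mediated decay, so the level of a host RNA need not follow the level of the small RNA cut from it. MicroRNA hosts are cut by Drosha in the nucleus, and each microRNA then pairs with target messengers mainly through its seed. The libraries measured the host RNAs only, and levels of the processed small RNAs were not analysed here.

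The microRNAs of Mir99ahg, Dleu2 and Mir22hg, the 3 microRNA hosts with the most counts, are shown first, because the seeds define the target families of each. Capitals mark the seed, bases 2 to 8, and the sequences are RefSeq's on GRCm38.p6. Mir99ahg, at chr16:77329328-77558428 on the plus strand, is the host of miR-99a, let-7c and miR-125b. Those 3 loci lie past the RefSeq end of the gene and inside its longer GENCODE models, which reach base 77773427. Dleu2, at chr14:61602836-61682373 on the minus strand, carries miR-15a and miR-16, which share 1 seed. Mir22hg, at chr11:75461539-75466690 on the plus strand, carries miR-22.
miR-99a-5p: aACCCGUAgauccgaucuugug
let-7c-5p: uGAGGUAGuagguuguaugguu
miR-125b-5p: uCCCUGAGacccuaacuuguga
miR-15a-5p: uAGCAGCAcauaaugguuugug
miR-16-5p: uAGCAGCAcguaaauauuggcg
miR-22-3p: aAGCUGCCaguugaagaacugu

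Snhg11 and Snhg17 are shown next because they are neighbours with related cargo and different values below. Snhg17 lies at chr2:158353700-158361522 on the minus strand and Snhg11 at chr2:158375713-158386474 on the plus strand, 14190 bases apart. GENCODE places 2 snoRNAs in Snhg11, Gm25187 and Gm25129, and 3 in Snhg17, of which Gm24411 and Gm23925 are shown. Capitals mark the first ANANNA match near the middle, the letters of an H box, and the last ACA. These are letter matches in the GENCODE transcripts on GRCm38.
Gm25187: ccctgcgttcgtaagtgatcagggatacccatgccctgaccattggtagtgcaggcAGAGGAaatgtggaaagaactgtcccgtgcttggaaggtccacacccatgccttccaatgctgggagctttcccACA
Gm25129: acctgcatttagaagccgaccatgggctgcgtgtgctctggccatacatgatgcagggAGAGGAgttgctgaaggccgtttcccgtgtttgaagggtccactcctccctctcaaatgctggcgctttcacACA
Gm24411: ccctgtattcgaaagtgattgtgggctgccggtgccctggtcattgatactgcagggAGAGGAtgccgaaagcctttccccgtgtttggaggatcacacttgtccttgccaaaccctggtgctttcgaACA
Gm23925: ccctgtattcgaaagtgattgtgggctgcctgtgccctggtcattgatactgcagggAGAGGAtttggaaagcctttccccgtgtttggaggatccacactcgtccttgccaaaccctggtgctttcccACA

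The Snhg17 pair were identical over 93.9% of aligned bases. Across the hosts, each Snhg11 snoRNA matched each Snhg17 snoRNA over 71.3% to 75% of aligned bases, and the Snhg11 pair matched each other over 68.4%. Snhg5, at chr9:88521052-88522897 on the minus strand, carries 2 C/D box snoRNAs that are identical at 71 of 72 bases. In them capitals mark the letters of the C box (TGATGA) and the D box (CTGA).
Snord50a: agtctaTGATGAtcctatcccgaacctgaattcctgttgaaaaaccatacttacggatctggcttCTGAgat
Snord50b: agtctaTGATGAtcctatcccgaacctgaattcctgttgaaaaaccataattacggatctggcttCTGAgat

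The start sites of several snoRNA hosts are shown because such genes are known for a run of pyrimidines (C and T) at the first transcribed base, as ribosomal protein genes have. Each line holds 50 bases of the RefSeq promoter table on GRCm38.p6, and the first transcribed base is number 26. Capitals mark a run of at least 5 pyrimidines that holds that base. Where a gene has several starts, the one with the longest run is shown.
Gas5: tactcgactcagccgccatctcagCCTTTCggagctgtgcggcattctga
Snhg7: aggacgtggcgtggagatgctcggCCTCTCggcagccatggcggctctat
Snhg12: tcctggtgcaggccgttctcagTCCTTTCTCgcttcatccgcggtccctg
Snhg8: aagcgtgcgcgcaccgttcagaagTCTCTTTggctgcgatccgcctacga
Snhg11: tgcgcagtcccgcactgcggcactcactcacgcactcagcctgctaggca
Snhg1: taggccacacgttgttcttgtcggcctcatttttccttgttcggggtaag

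A run of this kind stood at 6 of the 15 snoRNA or scaRNA hosts with a promoter sequence (40%), against 11.8% of 27025 genes in the table. Snhg17 and Snhg18 also had one, and Snhg11 and Snhg1 had none of at least 5. This definition was chosen after the host sequences had been read. An earlier and looser one, a C followed by at least 4 pyrimidines starting within 10 bases of the start, matched 9 of the 15 (60%) and 34.4% of all genes. Of the 7 microRNA hosts with a promoter sequence, 1 had the run (14.3%) and 6 matched the looser definition (85.7%). By the looser definition the feature was thus not particular to the snoRNA or scaRNA hosts. The match is a description of letters, and 4 of the 28 hosts had no promoter sequence in the table.

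Library totals ran from 35583997 to 37327770 counts, and the 28 hosts together held between 0.0309% and 0.0442% of them. All 13 brown adipocyte genes of a marker list, Ucp1 included, were present, with a summed level of 7698 to 17508 CPM, the count of a gene scaled to library size over the 10 libraries. Libraries differed in the RNA of marker genes of other cells. The sum of 14 skeletal muscle genes ran from 1.93 to 965 CPM, that of 15 macrophage genes from 154 to 735 CPM, and that of 9 erythrocyte genes from 710 to 22273 CPM, with the highest macrophage and erythrocyte sums in obesity-prone replicate 3. In bulk tissue, fewer cells of a type and less RNA per cell cannot be told apart.

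The 28 hosts covered a wide range of levels. Between genes, levels are given per length, as FPKM, fragments per kilobase of transcript scaled to library depth. Dleu2 was the highest, with a mean of 25.6 FPKM and libraries from 21.4 to 38.9. Gas5, the growth arrest transcript that carries 9 C/D box snoRNAs, followed at 23.4 FPKM, and Snhg4, with 2 snoRNAs, at 22.1 FPKM. The libraries of these 3 genes overlapped one another, so their order is not beyond their spread. Mir22hg came next at 10.45 FPKM, then Snhg1, with 8 snoRNAs in its introns, at 7.72 FPKM and Snhg3, with 2, at 7.41 FPKM.

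**Figure D1:**
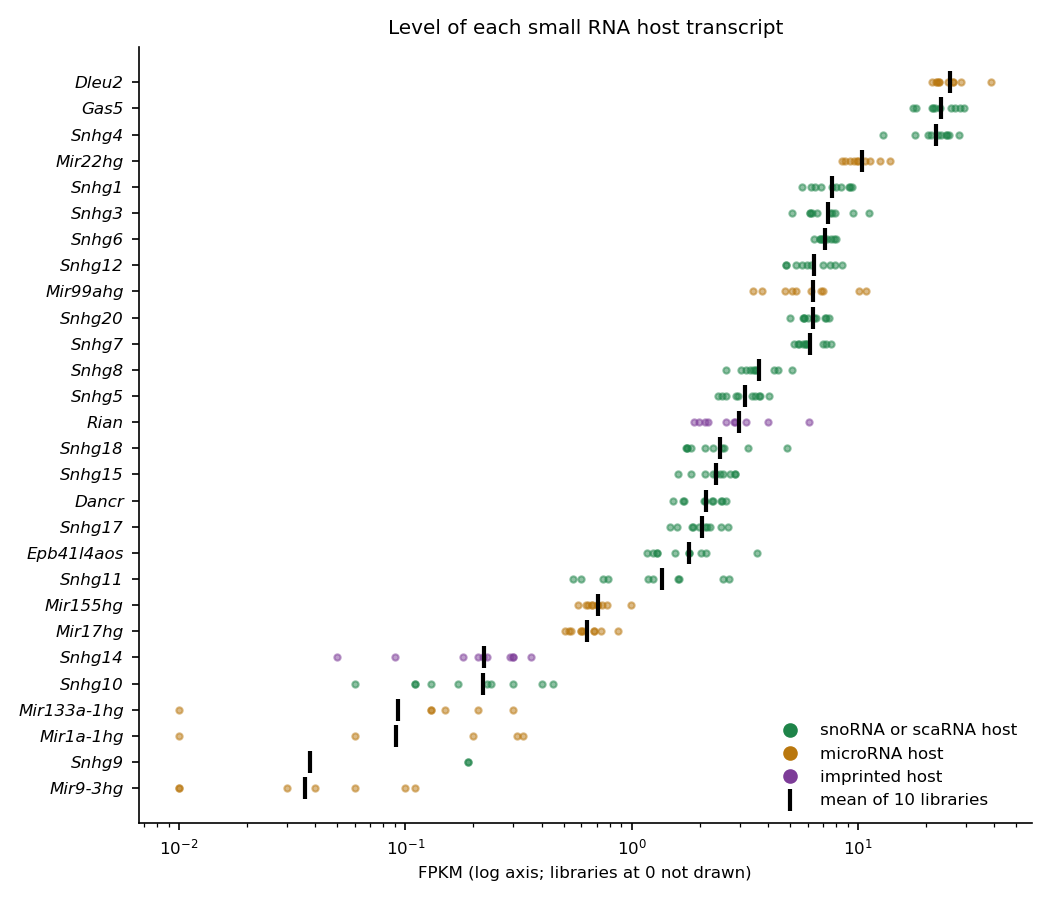
Level of each of the 28 host transcripts in FPKM on a log axis, each point 1 library and each black bar the mean of 10 libraries, coloured by the small RNA carried. Dleu2, Gas5 and Snhg4 stand at the top between 22.1 and 25.6 FPKM on average, and Snhg14 and the 5 genes under it have means of at most 0.223 FPKM.

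By cargo, 18 hosts carry snoRNAs or scaRNAs, 8 carry microRNAs, and 2 (Rian and Snhg14) are imprinted genes with long snoRNA arrays. These groups were drawn after the values had been seen. The microRNA hosts held 62.1% of the counts of the 28 genes, the snoRNA or scaRNA hosts 34.1% and the imprinted hosts 3.76%. The median of the mean levels was 3.41 FPKM for the snoRNA or scaRNA hosts and 0.673 FPKM for the microRNA hosts. The number of small RNAs carried did not rank the hosts by level: Snhg14 spans 210 snoRNAs in GENCODE at a mean of 0.223 FPKM, and Dleu2 carries 2 microRNAs at the highest level.

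The first comparison asked how these hosts differed between obesity-prone mice and controls. None of the 24 tested hosts passed the edgeR quasi-likelihood test at an adjusted p below 0.05, where 7% of 19676 genes did. At an unadjusted p below 0.05, 5 hosts stood lower and 0 higher: Mir99ahg, Snhg14, Snhg11, Mir22hg and Dleu2. These were 20.8% of the hosts, against 13.2% of all genes lower and 28.1% in either direction. In 3 of the 24, Mir99ahg, Snhg14 and Mir22hg, every obesity-prone library lay below every control library. That was 12.5%, against 10.6% of all genes lower and 20.3% in either direction. DESeq2 called 2 hosts, Mir99ahg and Snhg11, both lower, where it called 15.9% of all genes. The median log2 fold change was -0.06 over the hosts and 0.00 over all genes tested. With limma on log2(FPKM + 0.5) these medians were 0.02 and 0.05.

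**Figure D2:**
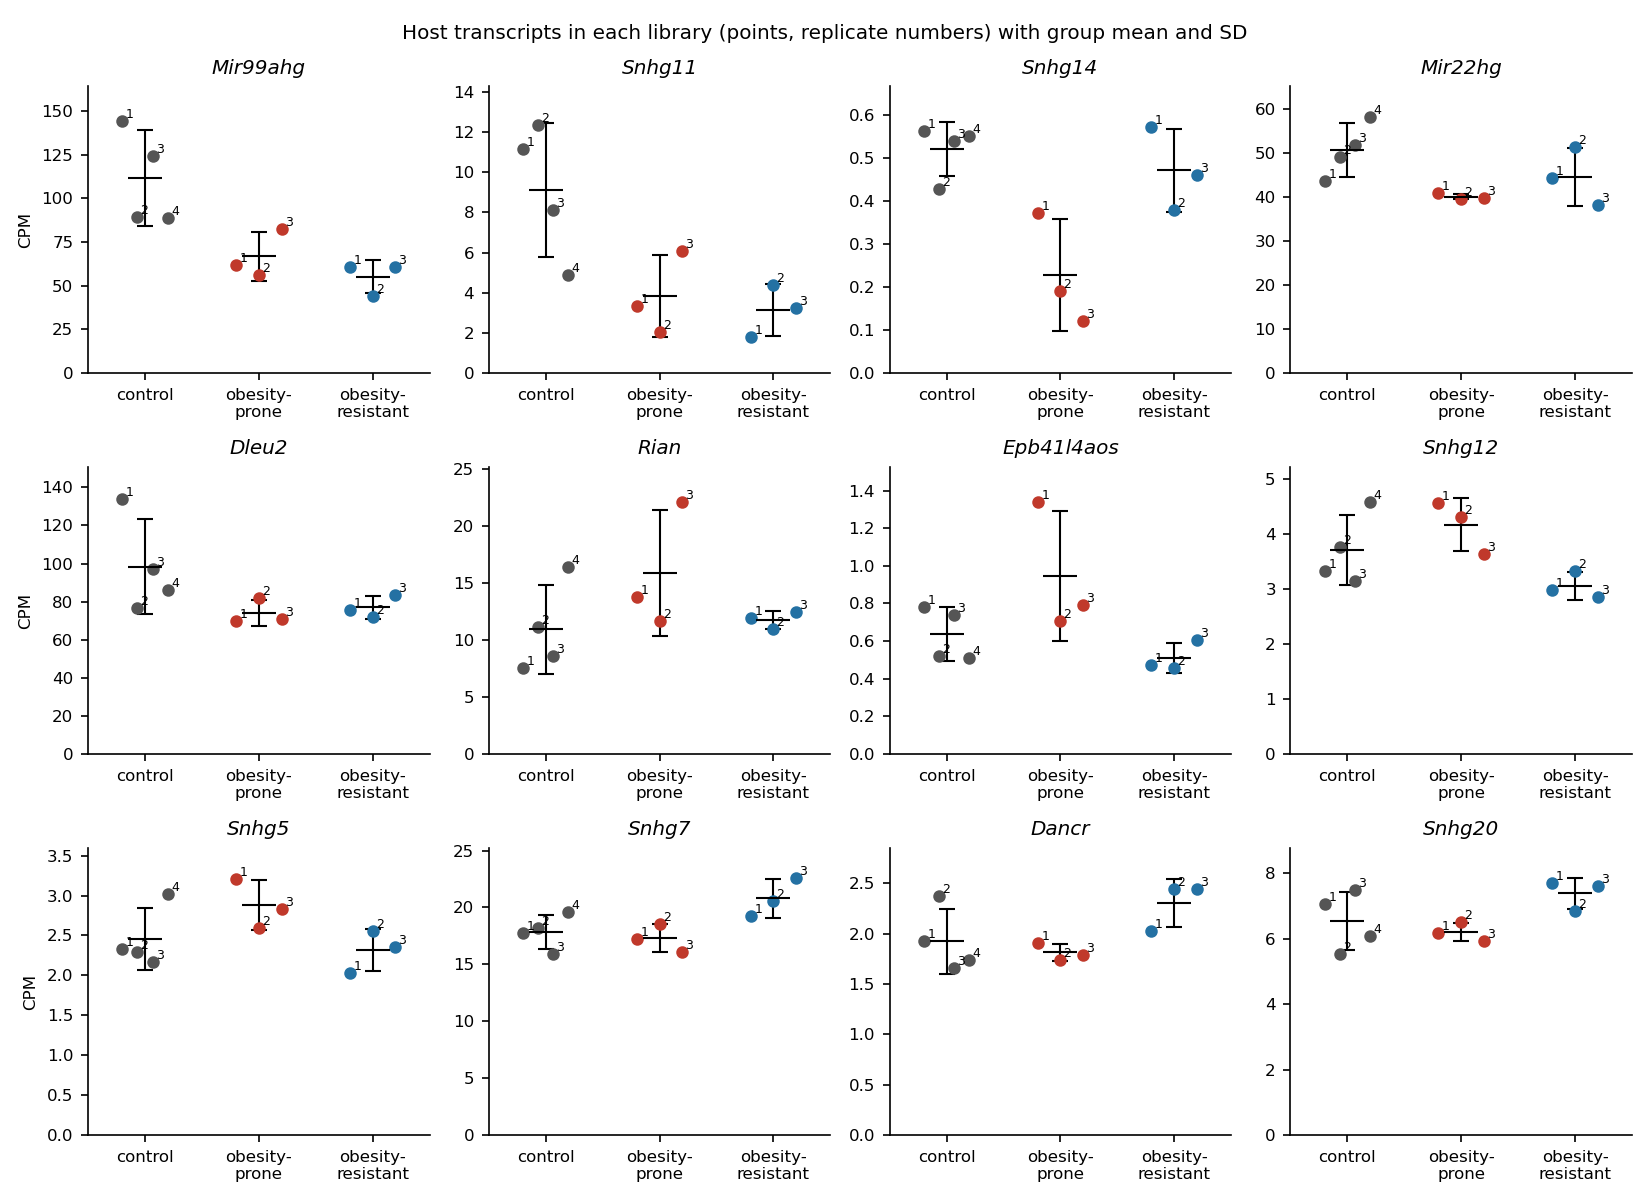
Level in CPM of 12 host transcripts in each library (points with replicate numbers), with the group mean and SD (black). Mir99ahg lies between 88.7 and 144 CPM in the controls and between 44.2 and 82.6 CPM in the libraries from the high-fat diet.

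Mir99ahg, the host of miR-99a, let-7c and miR-125b, stood at 144, 89.5, 124 and 88.7 CPM in control replicates 1 to 4 and at 61.6, 56.3 and 82.6 CPM in the obesity-prone libraries. The groups did not overlap, and control replicates 1 and 3 were the highest. The means were 112 ± 27.4 (SD, n = 4) and 66.8 ± 13.95 (SD, n = 3) CPM, a log2 fold change of -0.74 ± 0.21 (SE), with an edgeR adjusted p of 0.0572.

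Snhg11, the host of 2 H/ACA snoRNAs, had 11.2, 12.3, 8.10 and 4.90 CPM in the controls and 3.32, 2.07 and 6.05 CPM in the obesity-prone libraries. The groups overlapped through control replicate 4 and obesity-prone replicate 3. The log2 fold change was -1.26 ± 0.43 (SE), with an edgeR adjusted p of 0.0957. Its neighbour Snhg17 stood at 6.13 ± 0.556 (SD, n = 4) and 6.27 ± 1.40 (SD, n = 3) CPM, a log2 fold change of 0.03 ± 0.16.

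Snhg14, the imprinted host whose snoRNA arrays lie in the region known from Prader-Willi syndrome, is a weakly expressed gene here. Its controls held 20.1, 14.8, 18.9 and 20.5 estimated counts, and the obesity-prone libraries 14.4, 7 and 4.62. In CPM the controls ran from 0.427 to 0.562 and the obesity-prone libraries from 0.122 to 0.372. In the fit, its log2 fold change was -1.19 ± 0.36 (SE), with an edgeR adjusted p of 0.0675. Its exons share 1803 bases (6.91%) with Ube3a on the opposite strand, and the strand setting of the counting is not given in the sources used here. Ube3a itself stood at 124 ± 4.63 CPM in controls and 110.0 ± 11.1 CPM in obesity-prone libraries, with an edgeR adjusted p of 0.21.

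Mir22hg, the host of miR-22, had 43.8, 49.1, 51.8 and 58.3 CPM in the controls against 40.8, 39.7 and 39.8 CPM. The obesity-prone libraries lay close together, just under the lowest control. Its log2 fold change was -0.34 ± 0.12 (SE), with an edgeR adjusted p of 0.101. It shares 206 exon bases (10.7%) with Tlcd2 on the same strand, which stood at 5.13 ± 1.41 CPM in controls and 3.25 ± 0.482 CPM in obesity-prone libraries (edgeR adjusted p of 0.0926), so the counts of the pair are uncertain.

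Dleu2 ran from 76.5 to 134 CPM in the controls, with replicate 1 the highest, and had 69.9, 82.1 and 70.6 CPM in the obesity-prone libraries. The groups overlapped. In the fit, its log2 fold change was -0.41 ± 0.17 (SE), with an edgeR adjusted p of 0.152.

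The other abundant hosts did not reach an unadjusted p of 0.05. Gas5 had a log2 fold change of 0.10 ± 0.13, Snhg4 of -0.22 ± 0.19, Snhg1 of -0.31 ± 0.15 and Snhg3 of -0.40 ± 0.23. Their edgeR adjusted p values ran from 0.207 to 0.666. Snhg1 starts 106 bases from the amino acid transporter subunit gene Slc3a2 on the other strand, which had a log2 fold change of 0.22 ± 0.28 and an edgeR adjusted p of 0.652. Snhg3 shares 135 exon bases (13.7%) with Rcc1 on the same strand, whose log2 fold change was -0.05 ± 0.14. It shares more, 705 bases (71.5%), with the noncoding gene Gm17300 on the opposite strand, which is not among the genes measured. As the strand setting is not given, the counts of Snhg3 are uncertain.

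Some cell type markers passed in this comparison, where 7% of all genes did. A single call in a list of 10 or 13 genes is near that share. Of 15 macrophage genes 3 rose (Lyz2, Gpnmb and Tyrobp) and 0 fell, and their summed level was 154 to 292 CPM in controls and 242 to 735 CPM in obesity-prone libraries, with none of the 15 at 0. Of 13 brown adipocyte genes 1 fell, Fabp4, a fatty acid carrier, and the sum was 14237 to 17508 CPM against 7698 to 15050 CPM. Of 10 fibroblast and progenitor genes 1 rose, Ly6a, and none of the tested endothelial, smooth muscle, lymphocyte, nerve, erythrocyte or skeletal muscle genes passed. The part of these cells in the host values was not tested. Without obesity-prone replicate 3 and control replicate 4, an alternative chosen after seeing the data, Mir99ahg (log2 fold change -1.01, edgeR adjusted p of 0.0227) and Snhg11 (-1.96, adjusted p of 0.0171) passed, with 2635 of 19867 genes called. Without control replicate 4 alone, Mir99ahg, Snhg11 and Rian passed, with 3040 of 19539 genes called. Without obesity-prone replicate 1, Snhg14 did (log2 fold change -1.69, edgeR adjusted p of 0.0475), with 508 of 20172 genes called.

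**Figure D3:**
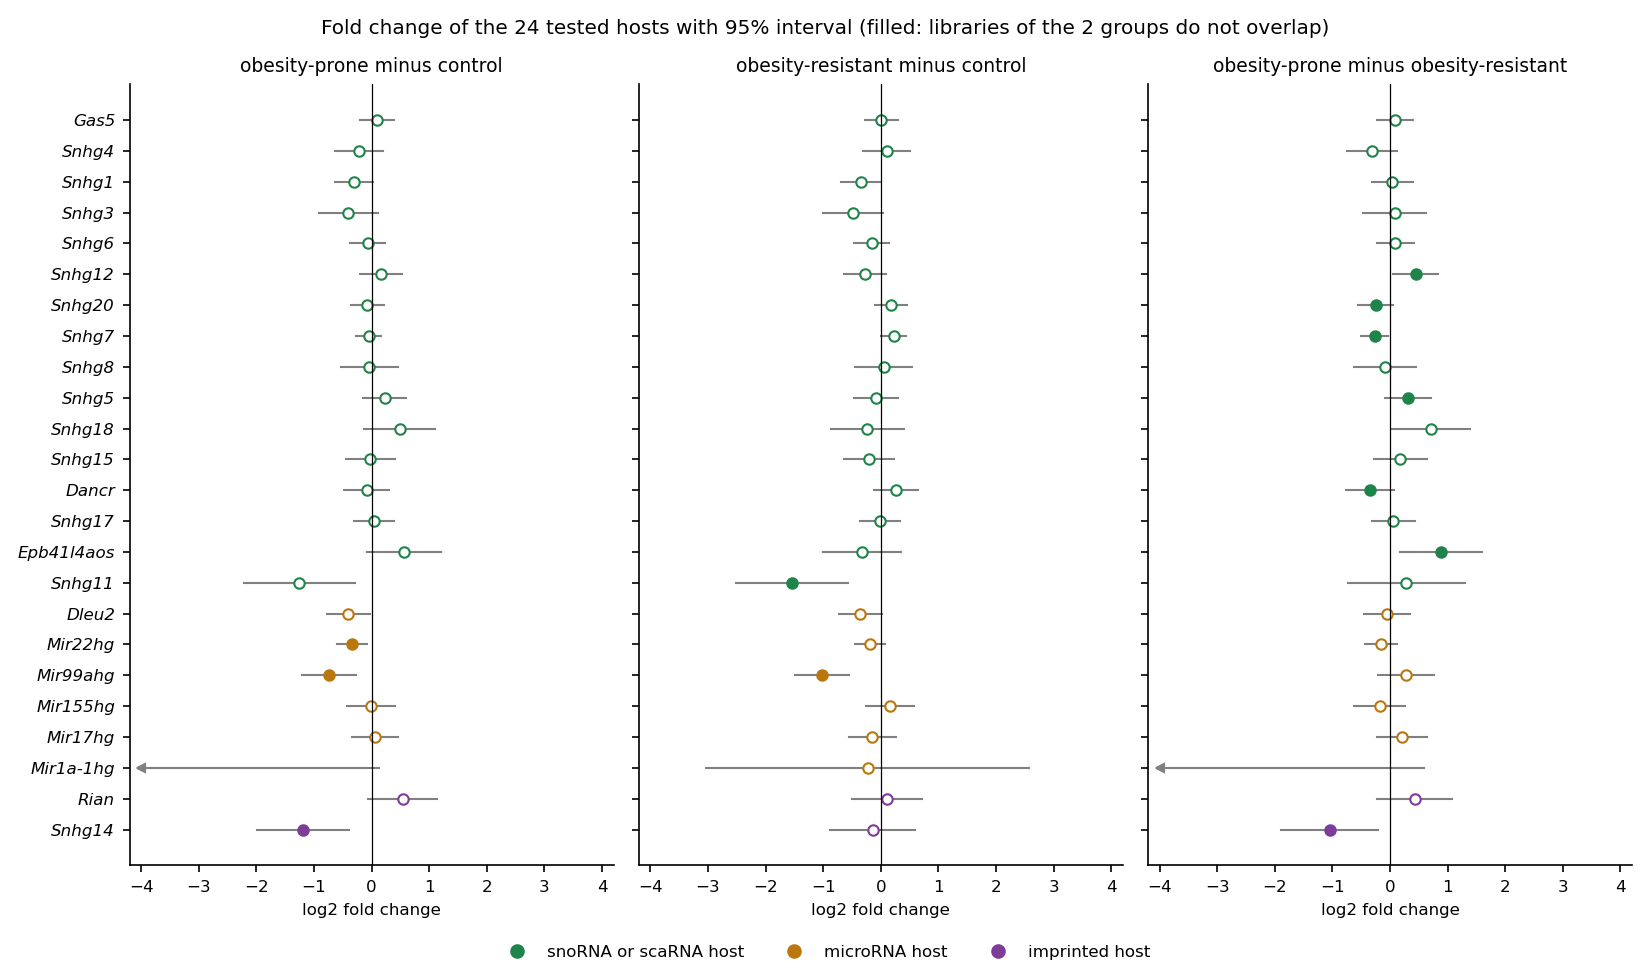
Log2 fold change of the 24 tested hosts with its 95% interval in the 3 planned comparisons, coloured by cargo, filled where the libraries of the 2 groups do not overlap. The intervals of Mir99ahg and Snhg11 lie below 0 in both comparisons with controls, and arrows mark the intervals of Mir1a-1hg that run off the axis, where its point is not drawn.

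The second comparison set obesity-resistant mice against controls. Again none of the 24 hosts passed the edgeR test, where 0.142% of all genes did (28 of 19676). At an unadjusted p below 0.05, Mir99ahg, Snhg11 and Snhg1 stood lower and Snhg7 higher, 12.5% and 4.17% of the hosts against 9.03% and 8.96% of all genes. The libraries did not overlap for 2 hosts, Mir99ahg and Snhg11, both lower (8.33%, against 9.69% of all genes lower). DESeq2 called those 2 and 5.78% of all genes. The median log2 fold change was -0.16 over the hosts and -0.01 over all genes. With limma on log2(FPKM + 0.5) these medians were -0.007 and 0.03, so the lower host median depended on the measure.

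Mir99ahg had 60.6, 44.2 and 60.5 CPM in the obesity-resistant libraries, a mean of 55.1 ± 9.41 (SD, n = 3), below the lowest control at 88.7 CPM. Its log2 fold change was -1.02 ± 0.21 (SE), with an edgeR adjusted p of 0.0756. Deviations of control and obesity-resistant libraries with the same replicate number were weakly correlated (0.149, 0.121 and 0.187). Whether the numbers mark shared batches or litters is not stated in the sources used here. With the number as a block Mir99ahg passed (log2 fold change -1.11, edgeR adjusted p of 0.0237). That fit called 382 genes in place of 28 and makes no use of control replicate 4, which has no partner.

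Snhg11 had 1.78, 4.38 and 3.24 CPM, a mean of 3.13 ± 1.30 (SD, n = 3) against 9.12 ± 3.33 (SD, n = 4) in controls. The highest of these lay just under control replicate 4, at 4.90 CPM. Its log2 fold change was -1.54 ± 0.44 (SE), with an edgeR adjusted p of 0.122, and 0.0888 with the block. Snhg17, beside it on the chromosome, had between 5.73 and 6.499 CPM, a log2 fold change of -0.02 ± 0.16.

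Snhg7, a host of 2 H/ACA snoRNAs, stood at 19.2, 20.6 and 22.6 CPM in obesity-resistant libraries and at 17.8, 18.2, 15.95 and 19.6 CPM in controls. Replicate 1 of the former fell below control replicate 4. In the fit, its log2 fold change was 0.22 ± 0.10 (SE), with an edgeR adjusted p of 0.27. Snhg1 stood at 8.37 ± 1.07 (SD, n = 3) against 10.7 ± 1.55 (SD, n = 4) CPM, a log2 fold change of -0.35 ± 0.15 with an edgeR adjusted p of 0.259. On FPKM the difference of Snhg1 was smaller, with means of 8.09 in controls, 7.04 in obesity-resistant and 7.91 in obesity-prone libraries. The limma adjusted p against control was 0.6 in obesity-resistant and 0.939 in obesity-prone libraries.

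The other members described singly did not reach an unadjusted p of 0.05 here. Snhg14 had 0.572, 0.380 and 0.460 CPM, within or near the control range, and a log2 fold change of -0.14 ± 0.33. Mir22hg had 44.3, 51.4 and 38.1 CPM (-0.19 ± 0.12) and Dleu2 75.8, 71.7 and 83.4 CPM (-0.35 ± 0.17). Gas5, Snhg4 and Snhg3 had log2 fold changes of 0.01, 0.10 and -0.48. The macrophage sum was 164 to 205 CPM here, inside the control range. Without control replicate 4, Mir99ahg and Snhg11 passed (edgeR adjusted p of 0.0244 and 0.0491), with 864 of 19539 genes called in place of 28. Without obesity-prone replicate 3, Mir99ahg did (edgeR adjusted p of 0.0443), with 292 of 20019 genes called.

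The third comparison was between both groups on the high-fat diet. The count of hosts called by edgeR was 0 of 24, and that of all genes was 0% of 19676. DESeq2 called 0 hosts and 2.87% of all genes. At an unadjusted p below 0.05, Epb41l4aos, Snhg12 and Snhg18 stood higher in obesity-prone libraries and Snhg14 and Snhg7 lower, where 9.78% of all genes stood higher and 5.62% lower. Libraries did not overlap for 7 hosts, 3 higher (12.5%, against 9.97% of all genes) and 4 lower (16.7%, against 9.76%). The median log2 fold change was 0.07 over the hosts and -0.01 over all genes.

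On the higher side was Epb41l4aos, an antisense transcript with 1 snoRNA, with 1.34, 0.707 and 0.790 CPM in obesity-prone and 0.473, 0.457 and 0.603 CPM in obesity-resistant libraries. Obesity-prone replicate 1 was far above the rest, and without it the log2 fold change was 0.55. Its log2 fold change was 0.89 ± 0.32 (SE) with an edgeR adjusted p of 0.262, and its libraries held 17 to 52 counts. Snhg12, with 4 snoRNAs, had 4.56, 4.297 and 3.63 against 2.98, 3.33 and 2.85 CPM, a log2 fold change of 0.45 ± 0.18 with an edgeR adjusted p of 0.286. Snhg5, host of the Snord50 pair, had 3.21, 2.60 and 2.83 against 2.03, 2.55 and 2.36 CPM. Its groups were separated by a narrow gap, and the log2 fold change was 0.31 ± 0.18 with an edgeR adjusted p of 0.429.

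On the lower side Snhg14 had 0.372, 0.190 and 0.122 CPM against 0.572, 0.380 and 0.460 CPM. The log2 fold change was -1.05 ± 0.38 (SE), with an edgeR adjusted p of 0.265. Snhg7 had 17.3, 18.5 and 16.1 CPM against 19.2, 20.6 and 22.6 CPM, a log2 fold change of -0.27 ± 0.10 with an edgeR adjusted p of 0.282. Dancr, a host of 1 H/ACA snoRNA known for holding progenitor cells undifferentiated, had 1.91, 1.74 and 1.79 against 2.03, 2.44 and 2.44 CPM. Snhg20, host of 1 scaRNA, had 6.16, 6.499 and 5.95 against 7.70, 6.85 and 7.62 CPM. The log2 fold changes of Dancr and Snhg20 were -0.35 ± 0.19 and -0.25 ± 0.14, both with an edgeR adjusted p of 0.394.

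Mir99ahg, Snhg11 and Dleu2, which stood below control in both diet groups, had intervals that held 0 between those groups. They were not the only hosts with a negative log2 fold change in both, as Snhg3, Snhg1 and Mir22hg show above. Mir99ahg had a log2 fold change of 0.28 between obesity-prone and obesity-resistant libraries, with a 95% interval from -0.21 to 0.77. Snhg11 had 0.28, with an interval from -0.73 to 1.30. Dleu2 had -0.05, from -0.45 to 0.35.

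Since both diet groups stood on the same side of control for these hosts, the mean of both diet groups was also set against control. This comparison was added after the values had been seen, and it shares its controls with the first and second. It called 2 of the 24 hosts, both lower, and 6.15% of all genes, 3.33% lower. At an unadjusted p below 0.05, 7 hosts stood lower and 0 higher (29.2%, against 25.4% of all genes in either direction). Dleu2 was not called (log2 fold change -0.38 ± 0.14, edgeR adjusted p of 0.129). Mir99ahg had a log2 fold change of -0.88 ± 0.17 (SE), 0.543 of the control level, with an edgeR adjusted p of 0.0212, and all 6 diet libraries lay below all 4 controls. That separation held for 1 of the 24 hosts (4.17%) and for 4.1% of all genes. Snhg11 had a log2 fold change of -1.40 ± 0.35 (SE), 0.379 of the control level, with an edgeR adjusted p of 0.0443, and its libraries overlapped. DESeq2 called the same 2 hosts (adjusted p of 0.000102 and 0.0021), and 13% of all genes. limma on log2(FPKM + 0.5) called Mir99ahg (adjusted p of 0.0376) and 4.91% of all genes.

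Both calls depended on single libraries, and the count over all genes ran from 56 to 2592 when 1 library was left out. Mir99ahg missed the threshold without control replicate 1 (edgeR adjusted p of 0.0703), control replicate 3 (0.0846), obesity-resistant replicate 1 (0.0536) or obesity-resistant replicate 3 (0.0502). Snhg11 passed without control replicate 4 (0.0181) or obesity-prone replicate 3 (0.0258) and missed it in each of the other 8 omissions (0.0619 to 0.133). The fold change stayed negative for both in every omission, from -0.98 to -0.73 for Mir99ahg without control replicate 4 and without control replicate 1, and from -1.65 to -1.22 for Snhg11.

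**Figure D4:**
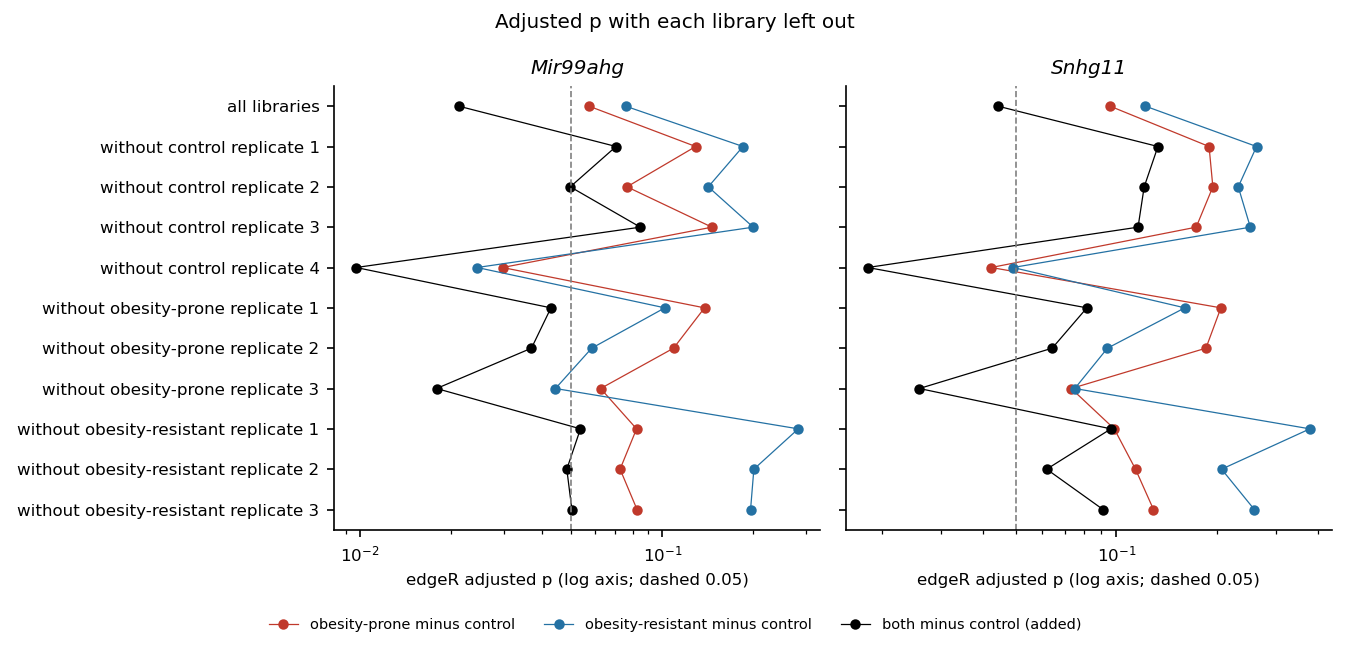
The edgeR adjusted p of Mir99ahg and Snhg11 on a log axis with all 10 libraries and with each library left out in turn, for 3 comparisons with control, the dashed line at 0.05. For the added comparison of both diet groups, Mir99ahg lies between 0.0097 and 0.0846 and Snhg11 between 0.0181 and 0.133 across the omissions.

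Rian, the imprinted host of 13 C/D box snoRNAs and 4 microRNAs on chromosome 12, is named here after its values were seen. Rian belongs to the Dlk1-Dio3 domain with Meg3 and Mirg, noncoding RNAs made from the maternal chromosome. Its levels were 7.57, 11.1, 8.63 and 16.4 CPM in controls, 13.8, 11.7 and 22.1 CPM in obesity-prone and 11.9, 10.9 and 12.5 CPM in obesity-resistant libraries. Control replicate 4 and obesity-prone replicate 3 were the highest, and the groups overlapped. The log2 fold change of obesity-prone against control was 0.54 ± 0.27 (SE), with an edgeR adjusted p of 0.226, which fell to 0.0475 (log2 fold change 0.80) without control replicate 4 and was 0.664 (0.22) without obesity-prone replicate 3. Meg3 was at 16.2, 25.9, 18.6 and 28.6 CPM in controls and 30.9, 17.5 and 34.9 CPM in obesity-prone libraries, with a log2 fold change of 0.32 ± 0.24. Mirg had 0.29 ± 0.26, and Dlk1, made from the paternal chromosome, -0.96 ± 0.50. None of the 3 tested genes of the domain list passed in any comparison.

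Of the remaining tested microRNA hosts, Mir17hg and Mir155hg stayed near their control level, and Mir1a-1hg held few counts with large, uncertain fold changes. Mir17hg, host of the miR-17 to miR-92a cluster, ran from 1.60 to 2.43 CPM over all libraries, and Mir155hg, known from activated immune cells, from 3.53 to 6.38 CPM. Mir1a-1hg, host of a muscle microRNA pair, held 0, 24, 15 and 0 counts in control replicates 1 to 4, 1, 0 and 0 in obesity-prone and 0, 4 and 22 in obesity-resistant libraries. The summed level of 14 skeletal muscle genes was 1.93, 965, 445 and 2.22 CPM in the controls, 46.9, 5.33 and 79.4 CPM in obesity-prone and 19.4, 234 and 812 CPM in obesity-resistant libraries, so the 4 libraries with the highest muscle sums were the 4 with the most Mir1a-1hg counts. The part of muscle in Mir1a-1hg was not tested. None of the 14 muscle genes passed in any comparison.

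**Figure D5:**
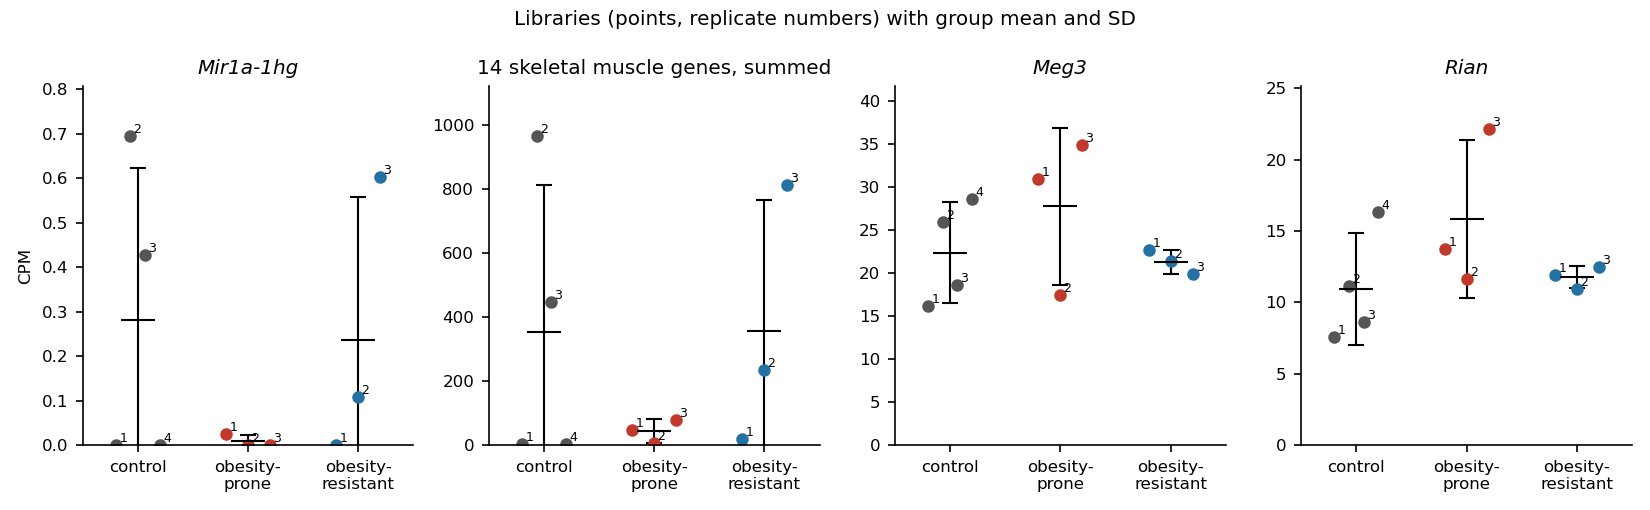
Level in CPM of Mir1a-1hg, of 14 summed skeletal muscle genes, of Meg3 and of Rian in each library (points with replicate numbers), with the group mean and SD (black, drawn down to 0 only). Mir1a-1hg and the muscle sum are highest in control replicates 2 and 3 and obesity-resistant replicates 2 and 3.

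The tested snoRNA hosts outside the rule for single description were Snhg6, Snhg8, Snhg15, Snhg17 and Snhg18, and Snhg17 was given above as the neighbour of Snhg11. Their log2 fold changes over the 3 planned comparisons ran from -0.23 to 0.72, the highest being Snhg18 in obesity-prone against obesity-resistant libraries (0.72 ± 0.30, edgeR adjusted p of 0.306). Without obesity-prone replicate 3 the value for Snhg18 was 0.34. Snhg18 starts 148 bases from Sema5a, a semaphorin gene on the other strand. In that comparison Sema5a had a log2 fold change of 0.93 ± 0.34 with an edgeR adjusted p of 0.267, and obesity-prone replicate 3 was the highest library for both genes, at 7.61 and 25.7 CPM. Among the hosts too low to test, Snhg10 held 39.5 estimated counts over the 10 libraries, Mir9-3hg 15 and Mir133a-1hg 13. Snhg9 was seen with 2 counts.

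Lists of genes that act with these hosts gave few calls. In obesity-prone mice against control, where 7% of all genes passed, 1 gene passed in each of 2 lists. Of 18 genes of snoRNA-protein particles and their assembly, 1 rose in obesity-prone mice, Naf1, an assembly factor of H/ACA particles, at 7.97, 8.51, 7.15 and 9.88 CPM in controls and 11.8, 11.9 and 11.5 CPM (log2 fold change 0.49 ± 0.11, edgeR adjusted p of 0.0342), and the median was -0.03. Of 15 tested genes of nonsense-mediated decay, 1 fell in that comparison, Upf3b, a factor that joins the exon junction complex to decay, at 11.2 ± 0.747 (SD, n = 4) and 8.46 ± 0.329 (SD, n = 3) CPM (log2 fold change -0.41 ± 0.09, edgeR adjusted p of 0.0314), and the median was -0.04. Neither gene passed in obesity-resistant mice (Naf1 0.21 ± 0.11, Upf3b -0.24 ± 0.09).

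None of the 32 protein-coding snoRNA hosts passed in the 3 planned comparisons, with medians from -0.05 to 0.01. Among them Hspa8, a heat shock protein of the Hsc70 class, had log2 fold changes of 0.76 ± 0.24 in obesity-prone and 0.91 ± 0.24 in obesity-resistant mice against control (edgeR adjusted p of 0.0744 and 0.107). In the added comparison of both diet groups Hspa8 rose (0.84 ± 0.21, edgeR adjusted p of 0.0435), the 1 call among the 32. The nonsense-mediated decay list also gave 1 call there, lower. In that comparison 6.15% of all genes passed. The 15 tested microRNA processing genes gave 0 calls in every comparison. The Argonaute gene Ago2 came nearest, with a log2 fold change of 0.32 ± 0.09 and an edgeR adjusted p of 0.0552 in obesity-prone mice. The list of 15 ribosome biogenesis genes and Myc targets gave 0 calls too, and its medians ran from -0.06 to 0.12.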

How the data were processed

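Total RNA of brown fat was sequenced. Per the labels' protocols, the authors mapped reads to a BGI gene set (Bowtie2 2.2.5) and estimated expression with RSEM 1.2.12. HISAT2 2.0.4 and GRCm38.p6 are named in the submitters' processing notes. The annotation release and strand setting are not given in the sources used here. The deposited table holds expected counts per gene (30.4% of values not whole), which were rounded for the tests, and FPKM values, a unit read from the values and used for levels between genes and in 1 alternative.

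Tests used edgeR 4.0.16 in R 4.3.3 (TMM factors, filterByExpr with a minimum count of 10, robust quasi-likelihood fit of all 10 libraries, 7 residual degrees of freedom) with Benjamini-Hochberg adjustment over 19676 genes. CPM use TMM library sizes. DESeq2 1.42.0 and limma 3.58.1 (log2 of FPKM plus a constant) were alternatives. Deviations of same-numbered control and obesity-resistant libraries correlated at 0.149, 0.121 and 0.187 across genes, above the 0.1 taken as the cut for pairing. Libraries with different numbers were not compared, so these values do not establish pairing.

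The members and lists were chosen with earlier results of these data known. Members described singly were those called, those whose libraries did not overlap between 2 groups, and the 6 highest in FPKM. Values of Rian, Mir1a-1hg, Snhg17 and Snhg18 are also given, outside that rule. On simulated data for obesity-prone against control (19343 genes), 85 of 100 genes changed by 2 and 45 of 100 changed by 1 (log2) were called, with 6 unchanged genes called. Annotation came from RefSeq GRCm38.p6 and GENCODE M21, which has an entry named for 25 of the 28. Snhg4, Snhg7 and Mir1a-1hg have no such entry, so genes that overlap them or start beside them were not looked for. No 2 libraries held identical counts. The deposited group means were not used.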

Additional observations from a re-analysis of the deposited data

Results flagged for a closer look

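In 3 of the 24 tested hosts every obesity-prone library lay on one side of the control mean and every obesity-resistant library on the other. The share of all genes that meet this rule was not counted, so the 3 cannot be read as more than usual. The log2 fold change of obesity-prone against obesity-resistant libraries was 0.886 for Epb41l4aos (edgeR adjusted p of 0.262), -0.3457 for Dancr (0.394) and -0.2525 for Snhg20 (0.394). The edgeR test of the difference was not passed for any of the 3. Snhg17 stood at 5.30 CPM in control replicate 3, apart from the other controls at 6.35 to 6.47 CPM, a gap of 0.898 of the group's range (Dixon's ratio), past its 95% critical value. Chance sets apart about 1 in 20 such groups.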

How the results depend on the processing

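The 3 planned comparisons called 0 hosts in edgeR. DESeq2 called 2 against control in each diet group. Limma on FPKM called 0 in each planned comparison. With the replicate block, which leaves control replicate 4 without weight, 1 host was called in each, Mir99ahg. For obesity-prone against control the correlations of same-numbered libraries lay below the 0.1 cut (-0.0865, -0.104 and -0.146). For obesity-prone against obesity-resistant they passed it in 1 of 3 (-0.108, -0.0649 and 0.206). Without obesity-prone replicate 3 and control replicate 4 together, 2 were called in each. Leaving out 1 library gave from 0 to 3 hosts for the obesity-prone group and from 0 to 2 for the obesity-resistant group, each against control. Between the diet groups every alternative gave 0. The added comparison of both diet groups called 2, and 1 without the filter, with a fold minimum of 2, or with limma on FPKM plus 0.5, 0.1 or 1 (Snhg11 lost, except that the fold minimum lost Mir99ahg). Leaving out 1 library gave 0 to 2 there. The block changed no other call. The cause of these moves was not tested. Counts over all genes moved more. Obesity-prone against control gave 1377, of which 730 were higher, 3138 with DESeq2, 66 from the pairwise fit, and 76 to 3040 with 1 library left out. Limma on FPKM plus 0.5 gave 1026, of which 649 were higher. Obesity-resistant against control gave 28, 1138 with DESeq2, 391 pairwise, 382 with the block, 76 without the filter, 68 with a stricter one, 3 to 864 with 1 library left out and 2212 without the 2 named above. Both diet groups against control gave 1211, and 56 to 2592 with 1 library left out. Between the diet groups, 871 genes were called without obesity-prone replicate 2. No named host called or below an unadjusted p of 0.05 changed sign in any alternative. Counts limit Snhg14, Epb41l4aos and Mir1a-1hg most.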
